A study of Homo sapiens with 18 samples.

Results

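Metallothioneins are small, cysteine-rich proteins that bind zinc and copper and scavenge heavy metals such as cadmium. Their genes are switched on by metal through MTF1, a zinc-sensing transcription factor that binds metal response elements in their promoters, and by glucocorticoids. MTF1 also acts on SLC30A1, the transporter that moves zinc out of the cell. The members described here are 7 genes, the 6 metallothionein genes MT2A, MT1X, MT1E, MT1F, MT1G and MT1M together with MTF1, followed by symbol through the 2 tables of the series. They were selected on measured values: MT2A is labelled by the study as a target of both microRNA mimics, and its level in MCF10A cells is clearly lower with the mimics than with siNT. Of the 7 members, 5 are listed among 15358 genes in MCF10A (MT2A, MT1X, MT1E, MT1F and MTF1) and 6 among 15257 genes in hTERT RPE-1, where MT1M is added. MT1G is listed in neither table. All 5 members listed in MCF10A and 5 of the 6 in hTERT RPE-1 reached a value of 10 in at least 3 libraries and entered the test, while MT1M did not.

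PolyA+ RNAseq was carried out on 18 libraries, with 3 biological replicates in each of 3 groups per cell line. MCF10A is a near-normal human breast epithelial line and hTERT RPE-1 is a telomerase-immortalised human retinal pigment epithelial line, and neither carries an added allele that differs between groups. Cells of each line received 30 nM of a non-targeting siRNA (siNT), of the hsa-miR-28-5p mimic (miR-28) or of the hsa-miR-708-5p mimic (miR-708), and all groups were collected after 72 h. The growth medium of MCF10A contained hydrocortisone, a glucocorticoid, and no hydrocortisone is given for hTERT RPE-1. Each group is the response of 1 line to a transfected mimic rather than to a microRNA expressed from its own gene. Values are estimated read counts divided by a size factor of the library, referred to below as normalised reads. The tables of the lines were scaled separately, so levels were tested only within a line.

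The value of 1 read was estimated in each library from the spacing of its low values. Depth over the listed genes was thereby estimated at 19.4–31.7 M reads for MCF10A libraries and 23.8–40.3 M for hTERT RPE-1 libraries. By the same estimate, 3 reads corresponded to 2.49–4.02 and 2.36–4.41 normalised reads. All 11 breast basal epithelial markers were listed in MCF10A, KRT5 and KRT14 among them, and 4 of the 11 were listed in hTERT RPE-1. In hTERT RPE-1, 8 of 11 retinal pigment epithelial markers were listed, and all 8 mesenchymal markers. The defining markers RPE65 and TYR were not listed there, while RPE65 was listed in MCF10A with a mean of 27.2. OTX2, RLBP1 and TYRP1 were listed in hTERT RPE-1 only. Of the retinal pigment epithelial markers listed in both lines, MITF and PMEL had higher means in hTERT RPE-1. BEST1, SERPINF1 and TIMP3 had higher means in MCF10A. These means come from separately scaled tables and were not tested. The summed basal markers of MCF10A ranged 245324–260611 with siNT, 170401–186227 with miR-28 and 143861–177462 with miR-708, and the summed mesenchymal markers 24277–41500, 22813–66191 and 39081–89244. Of the retinal pigment epithelial markers 6 were listed in MCF10A, with sums of 3573–4395, 5170–5864 and 4964–5851. The summed retinal pigment epithelial markers of hTERT RPE-1 ranged 3149–4470, 2188–2296 and 2279–2459 in the same order, and the 4 listed basal markers 929–1135, 1143–1354 and 697–749. Its summed mesenchymal markers ranged 1252080–1984950, 1442500–1851660 and 936506–1078800. Such sums mainly follow the most abundant genes. Over all libraries of a line, the mean was 3564 for TIMP3 in MCF10A and 1235820 for FN1 in hTERT RPE-1. The part of these shifts in the results below was not tested, and in bulk RNA fewer cells of a type and less RNA per cell cannot be told apart. In 1 hTERT RPE-1 library, miR-28 replicate 1, ribosomal RNA genes took 15.1% of the values.

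MicroRNAs direct Argonaute proteins to transcripts that pair with their seed, the bases at positions 2 to 8. The mimics have the same seed, shown in capitals, and differ in the bases that follow it, so any match to the seed is shared by both. They are written here as the study designed them, 22 and 23 bases long.
hsa-miR-28-5p: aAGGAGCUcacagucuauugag
hsa-miR-708-5p: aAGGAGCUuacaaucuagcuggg

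The shortest match searched, the 6mer GCTCCT, pairs with bases 2 to 7. AGCTCCT (7mer-m8) adds base 8, GCTCCTA adds an A on the other side, and AGCTCCTA (8mer) holds both and contains the shorter matches. In the GENCODE 44 transcripts on hg38, each of the 6 metallothionein members carried 2 to 4 of the 6mers, every one of them in the coding sequence and none in the 5′ or 3′ UTR. MT1X had 4, MT2A, MT1G and MT1M had 3 each, and MT1E and MT1F had 2 each. The windows below show the matches of the members that were measured at more than trace level, read 5′ to 3′ on the coding strand with the 6mer in capitals, because they are the seed matches these short messages offer the mimics.
MT2A exon 1: gccatggatcccaactGCTCCTgcg
MT2A exon 2: tcctgcacctgcgccgGCTCCTgca
MT2A exon 3: tgcaagaaaagctgctGCTCCTgct
MT1X exon 1: gaaatggaccccaactGCTCCTgct
MT1X exon 2, first: tcctgctcgcctgttgGCTCCTgtg
MT1X exon 2, second: tcctgtgcctgtgccgGCTCCTgca
MT1X exon 3: tgcaagaagagctgctGCTCCTgct
MT1E exon 2, first: tcttgcgccactggtgGCTCCTgca
MT1E exon 2, second: tcctgcacgtgcgccgGCTCCTgca
MT1F exon 1: gcaatggaccccaactGCTCCTgcg
MT1F exon 3: tgcaagaagagctgctGCTCCTgct

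The MT2A matches lie at chr16:56608669-56608674, chr16:56609013-56609018 and chr16:56609269-56609274, 1 in each exon of the gene at chr16:56608584-56609497. The other metallothionein members follow on the same chromosome, from MT1E at chr16:56625475-56627112 through MT1M and MT1F to MT1X at chr16:56682470-56684196, with MT1G on the opposite strand. All matches sit in the same reading frame, so that each covers a TCC codon followed by the T of a TGC or TGT codon, that is a serine codon next to a cysteine codon. Of the 61 codons of MT2A, MT1X, MT1E, MT1F and MT1M, 20 encode cysteine, and 20 of the 62 codons of MT1G do. The 6mer is the reverse complement of the seed's first 6 bases and recurs with this codon pair.

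Among 19675 protein-coding genes, 45.8% held a 6mer in the coding sequence and 8.3% held 3 or more. The density in the metallothionein members, 10.8 to 21.5 matches per kb of coding sequence, was reached by few other genes. Only 14 genes (0.0712%) held 10 or more per kb, and 10 of the 14 were metallothionein genes. A density over so short a coding sequence of 186 bases, or 189 in MT1G, rests on few matches. The coding sequences of the 6 members were 88.7–94.2% identical to each other, so matches at the same place in several members are not separate instances.

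MTF1, at chr1:37809574-37859592 on the minus strand, had a longer transcript of 7937 bases with 3 matches in the coding sequence, 1 further 6mer in the 3′ UTR and an 8mer in the 3′ UTR. In all genes, 31.9% held a 6mer and 16.7% a 7mer or 8mer in the 3′ UTR. The 6mer core of this 8mer is at chr1:37812077-37812082, and the 8mer is shown because it was the only full match to the seed with its flanking A in any member.
MTF1 3′ UTR: tgtacgttatcttctAGCTCCTAct

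**Figure D1:**
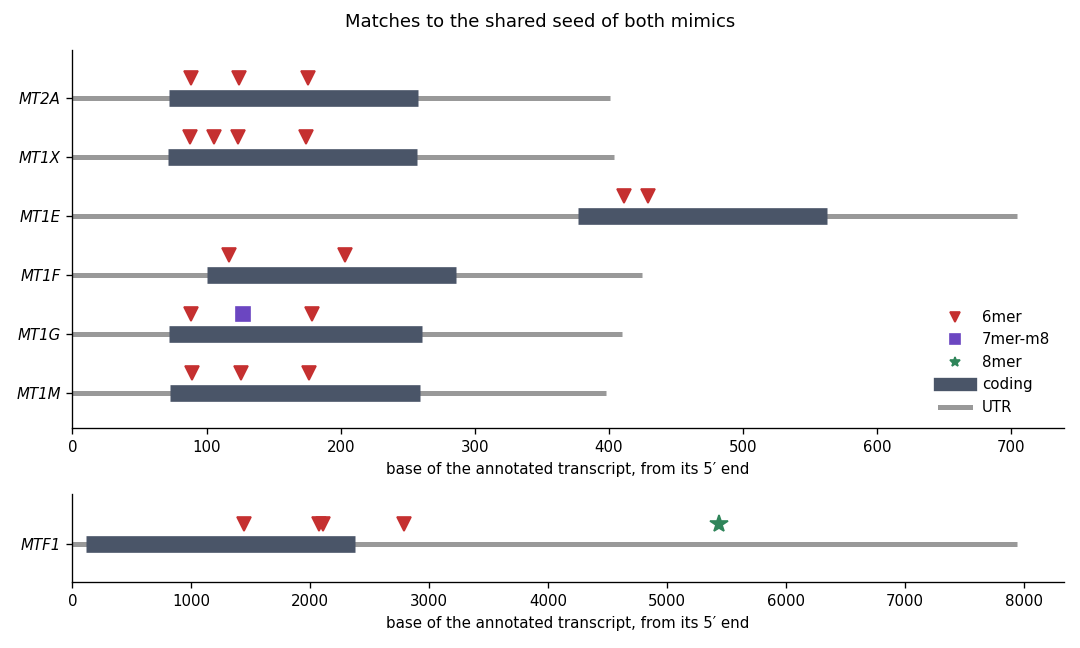
Positions of seed matches in the annotated transcripts of the 7 members, in bases from the 5′ end of the transcript, with the coding sequence as a thick bar and the UTRs as a thin line; MTF1 has its own axis. Triangles mark 6mers, the square a 7mer-m8 and the star an 8mer, and in the metallothionein members every symbol lies over the coding sequence.

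MT2A was the most abundant metallothionein in both lines. In MCF10A it stood at 8730, 12541 and 10747 normalised reads in siNT replicates 7, 8 and 9. With miR-28 the values were 2570, 3489 and 3786, and with miR-708 they were 2725, 3620 and 3762. All 6 libraries with a mimic were below the lowest siNT library, and replicate 7 was the lowest in each group. The mean was 10673 ± 1906 (SD, n = 3) with siNT, 3282 ± 634 with miR-28 and 3369 ± 562 with miR-708, which is 30.7% and 31.6% of siNT. The log2 fold changes were −1.70 and −1.66, each with a standard error of 0.18. These contrasts chose MT2A, so they are given without a test.

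In hTERT RPE-1, whose values the rule that chose MT2A did not use, the gene was tested, though earlier results of these data were known. It measured 4115, 3689 and 3491 normalised reads in siNT replicates 1, 2 and 3. The values were 2035, 1996 and 2055 with miR-28 and 2159, 1706 and 1958 with miR-708. Both mimic groups lay below all siNT libraries and overlapped each other, and the miR-28 libraries were the tightest, with a coefficient of variation of 1.49% against 8.46% with siNT. MT2A fell to 53.9% of siNT with miR-28 (log2 fold change −0.89, SE 0.10, adjusted p = 6.12e-05, limma) and to 51.6% with miR-708 (−0.96, SE 0.10, adjusted p = 1.64e-05, limma). In the same test, 23.5% of 14527 genes were called lower with miR-28 and 31.2% with miR-708. Without the library rich in ribosomal RNA, the first of these values was −0.89 (adjusted p = 0.000118, limma).

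MT1E, the second most abundant, followed MT2A. In MCF10A the siNT values were 2329, 4060 and 3545 normalised reads, against 959, 1361 and 1784 with miR-28 and 945, 1904 and 1689 with miR-708. Neither mimic group reached the lowest siNT library. The means were 41.3% and 45.7% of siNT, with log2 fold changes of −1.28 and −1.15 (SE 0.29), again without a test. The siNT values in hTERT RPE-1 were 1614, 1417 and 1814, against 1265, 1095 and 1272 with miR-28 and 1174, 790 and 973 with miR-708. MT1E fell to 60.6% of siNT with miR-708 (−0.73, SE 0.15, adjusted p = 0.00127, limma). With miR-28 it fell to 75.0% (−0.41, SE 0.15, adjusted p = 0.0383, limma), but that call was lost when siNT replicate 1 or 3, miR-28 replicate 2 or 3 or miR-708 replicate 3 was left out, with adjusted p between 0.0101 and 0.124 over all alternatives.

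MT1X, which held 4 seed matches, varied most between replicates in MCF10A. The siNT values were 614, 1472 and 966 normalised reads. With miR-28 they were 177, 380 and 404, and with miR-708 they were 182, 631 and 515. The miR-28 libraries were below all siNT libraries. Replicate 8 of miR-708 was above siNT replicate 7, so those groups overlapped, and the coefficient of variation of the 3 groups ranged from 38.9% to 52.7%. The log2 fold changes were −1.67 and −1.29 (SE 0.46), and the second was −0.74 without miR-708 replicate 7. Against the siNT library of the same replicate number, MT1X stood at 25.8–41.8% with miR-28 and at 29.6–53.4% with miR-708. It was lower in all 6 pairs, which use each siNT library for both mimics and are given without a test. In MCF10A, libraries of the same number as siNT deviated together from their group means. The corresponding ranges were 27.8–35.2% and 28.9–35.0% for MT2A, 33.5–50.3% and 40.6–47.6% for MT1E and 23.7–68.2% and 38.3–84.7% for MT1F.

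In hTERT RPE-1, MT1X measured 184, 210 and 154 normalised reads with siNT. The values were 53.4, 81.5 and 57.1 with miR-28 and 60.4, 72.3 and 45.1 with miR-708. The highest mimic library, at 81.5, was below the lowest siNT library, at 154. MT1X fell to 35.1% of siNT (log2 fold change −1.51, SE 0.23, adjusted p = 0.000497, limma) and to 32.5% (−1.62, SE 0.23, adjusted p = 0.000153, limma) in the same order of mimics.

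MT1F was low in both lines. In MCF10A it measured 27.5, 38.6 and 27.4 normalised reads with siNT, against 18.8, 9.12 and 12.8 with miR-28 and 23.3, 27.8 and 10.5 with miR-708. The first mimic group lay below siNT and the other overlapped it, with log2 fold changes of −1.18 and −0.66 (SE 0.44), and the second was −0.26 without miR-708 replicate 9. In hTERT RPE-1, MT1F measured 30.2, 33.4 and 51.4 with siNT, then 4.36, 3.75 and 6.99 with miR-28 and 7.85, 5.71 and 2.55 with miR-708. These mimic values are equivalent to a few reads each, and 1 of the 6 was worth 3 reads or less. MT1F entered the test through its siNT libraries alone, so it had to differ, and its fitted log2 fold changes of −2.70 and −2.69 became −2.09 and −2.07 with a pseudocount of 5 in place of 1. Its means were 13.1% and 14.0% of siNT.

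MT1M was listed in hTERT RPE-1 only, at 12.9, 11.1 and 5.87 normalised reads with siNT, 5.45, 7.49 and 4.66 with miR-28 and 5.49, 1.90 and 2.55 with miR-708. The first mimic group overlapped siNT, the other lay below it, and 2 of the miR-708 values were worth 3 reads or less. It was too low to test. MT1L, a metallothionein pseudogene outside the member list, was the 1 of 11 other metallothionein genes listed in MCF10A, and none of the 11 was listed in hTERT RPE-1. It measured 58.7, 111 and 72.1 normalised reads with siNT, 6.70, 25.7 and 20.7 with miR-28 and 10.8, 4.79 and 13.4 with miR-708, with both mimic groups below siNT.

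Reads can be divided between members, since 10 of the 15 pairs of member transcripts share a stretch of 50 bases or more, although none shares one of 100 bases. A sum over the family is not changed by how reads were divided among its listed genes. The summed level of the listed MT1 and MT2A genes in MCF10A, MT1L included, was 11760–18223 normalised reads with siNT, 3731–6007 with miR-28 and 3886–6187 with miR-708. The group means, 15113 ± 3239, 5001 ± 1161 and 5354 ± 1275 (SD, n = 3), put the mimics at 33.1% and 35.4% of siNT. In hTERT RPE-1 the sums were 5360–5956, 3183–3396 and 2576–3407, with the mimics at 59.1% and 53.3% of siNT. The sum took 406–639 per M of all values in the siNT libraries of MCF10A and 145–171 per M in those of hTERT RPE-1, values that come from separately scaled tables and are set side by side without a test.

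**Figure D2:**
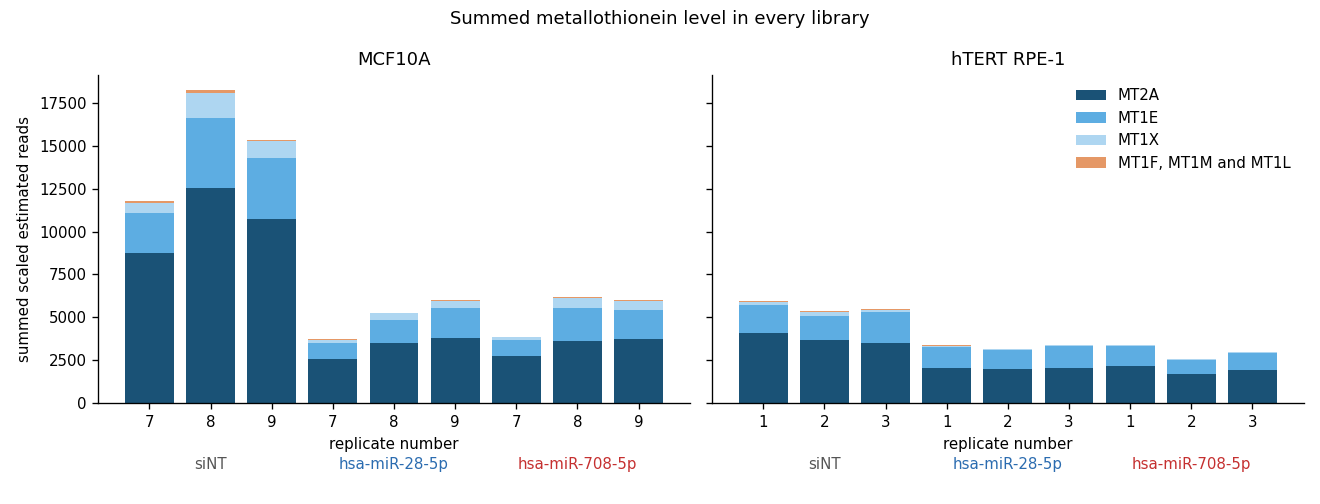
Summed normalised reads of the listed metallothionein genes in each library, stacked by gene, with 1 bar per replicate. The 6 mimic bars of each line are shorter than all siNT bars (at most 6187 against at least 11760 in MCF10A, and at most 3407 against at least 5360 in hTERT RPE-1), and MT2A fills the largest part of every bar.

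MT2A made up 68.8–74.2% of the summed level in the siNT libraries of MCF10A, 63.0–68.9% with miR-28 and 58.5–70.1% with miR-708. The MT1E share went from 19.8–23.1% to 25.7–29.7% and 24.3–30.8%, although the level of MT1E was lower with both mimics. Shares of the same sum are not independent of each other, and MT2A was chosen as lower in MCF10A. The MT2A share in hTERT RPE-1 was 63.3–69.1% with siNT, 60.5–62.7% with miR-28 and 63.4–66.2% with miR-708. Only the miR-28 group lay apart from siNT there, and none of these shares was tested.

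Per kb of transcript, the siNT levels in MCF10A ran from MT2A (21771–31274 normalised reads per kb) through MT1E (3309–5768), MT1X (1520–3644) and MTF1 (149–163) to MT1F (64.4–90.7). MT1E and MT1X overlapped in this order and the other neighbours did not. The MT1E values rest on a transcript of 704 bases, 377 of them 5′ UTR, against 401 bases for MT2A and 404 for MT1X. A shorter MT1E transcript would give higher values per kb and was not tried. In hTERT RPE-1 the siNT order was the same, with MT2A at 8706–10261, MT1E at 2012–2576, MT1X at 381–519, MTF1 at 169–203, MT1F at 71.1–121 and MT1M at 14.7–32.5 per kb, and no neighbours overlapped.

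MTF1, the activator of these genes, was higher with the mimics. In MCF10A it measured 1182, 1293 and 1187 normalised reads with siNT, 1449, 1480 and 1644 with miR-28 and 1759, 1623 and 1840 with miR-708. All 6 mimic libraries were above all siNT libraries, at 125% and 143% of the siNT mean. The log2 fold changes were 0.32 and 0.51 (SE 0.09), without a test. The hTERT RPE-1 values were 1345, 1469 and 1614 with siNT, 1759, 1888 and 1957 with miR-28 and 1906, 2009 and 2074 with miR-708. MTF1 rose to 127% of siNT with miR-28 (0.34, SE 0.09, adjusted p = 0.00959, limma) and to 135% with miR-708 (0.44, SE 0.09, adjusted p = 0.0015, limma), where 23.3% and 30.9% of all genes were called higher.

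**Figure D3:**
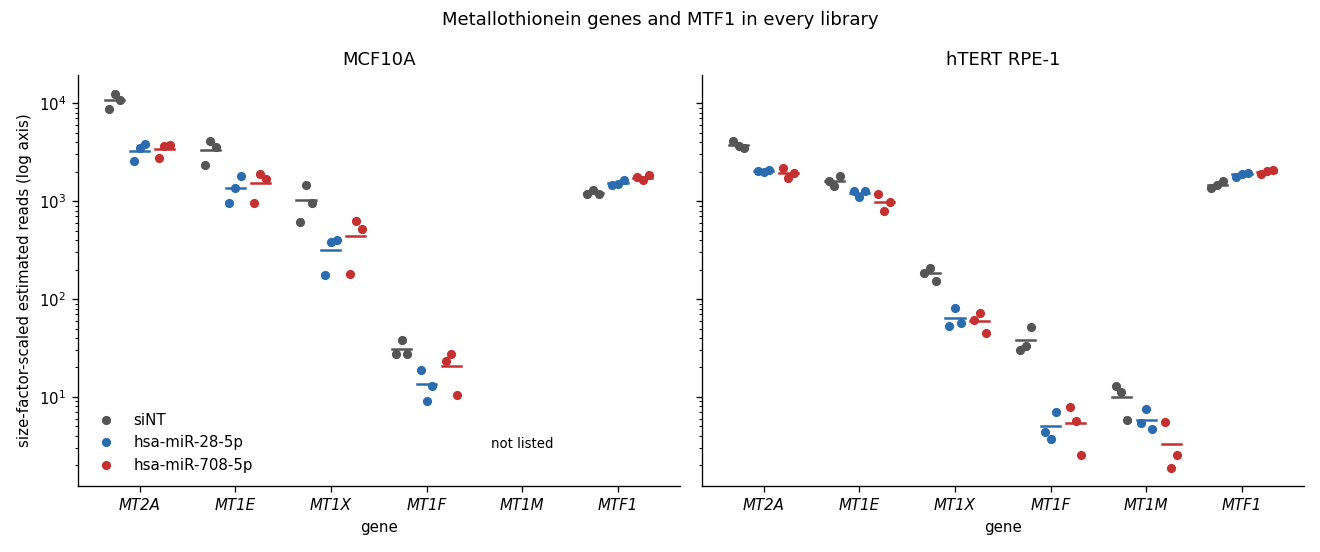
Normalised reads of 6 members in each of the 18 libraries on a log axis, with a point per library and a line at the group mean; MT1M was not listed in MCF10A and MT1G in neither line. MT2A sits highest in every group, and the siNT mean stands above the mimic means for the metallothionein genes and below them for MTF1.

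Of the 5 tested members, the 4 metallothionein genes were called lower and MTF1 higher with each mimic in hTERT RPE-1, where 23.5% of all genes were called lower and 23.3% higher with miR-28 and 31.2% and 30.9% with miR-708. MT1F could only be called lower, so the remaining 3 metallothionein genes carry the test. No count of called members is given for MCF10A, whose contrasts with siNT chose them. Of 14726 genes tested in MCF10A, 12% were called lower and 10.7% higher with miR-28, and 17.3% and 15.5% with miR-708.

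**Figure D4:**
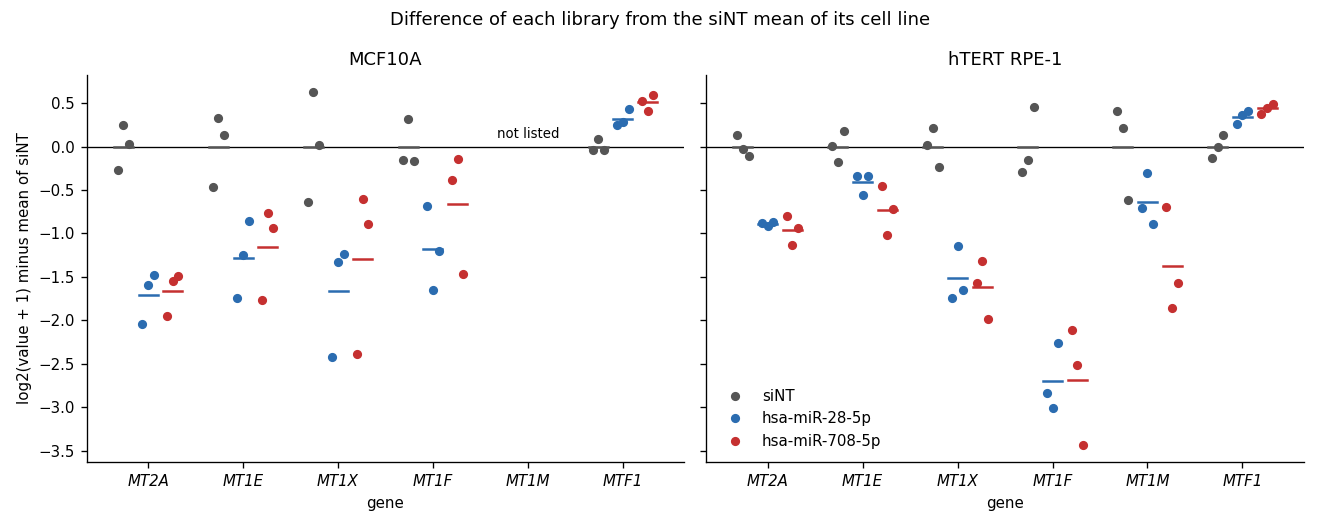
Difference of each library from the siNT mean of its line, in log2(value + 1), with a point per library and a line at the group mean. For MT2A the mimic group means lie at −1.70 and −1.66 in MCF10A and at −0.89 and −0.96 in hTERT RPE-1, and for MTF1 they lie above zero in both lines.

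With a shared seed, the mimics can be compared with each other directly, at the same dose and time. The difference between the mimics was not itself used to choose the members. In MCF10A, however, MT2A was chosen as lower with the mimics, so its difference there is not independent of the choice. None of the 5 tested members was called by limma in either line, and at an unadjusted p below 0.05 there were 0 in MCF10A and 1 in hTERT RPE-1. In MCF10A, 0.265% of genes were called lower and 1.28% higher with miR-708 than with miR-28, and in hTERT RPE-1 the shares were 11.4% and 9.88%. MT2A differed by 0.04 in log2 in MCF10A (95% interval −0.35 to 0.43, adjusted p = 0.931, limma) and by −0.07 in hTERT RPE-1 (−0.29 to 0.15, adjusted p = 0.653, limma). For MT1X the difference was 0.37 (−0.64 to 1.39, adjusted p = 0.736, limma) and −0.11 (−0.63 to 0.41, adjusted p = 0.772, limma). The MT1X interval in MCF10A leaves room for a difference of more than 2-fold in one direction, that for MT2A does not.

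MT1E differed by 0.13 in MCF10A (−0.50 to 0.76, adjusted p = 0.867, limma). In hTERT RPE-1 it was lower with miR-708 by −0.32 (interval −0.64 to −0.00096), a difference with an unadjusted p of 0.0494 that did not pass the adjustment over all genes (adjusted p = 0.141, limma). Of its 3 libraries with miR-708, 2 were below all miR-28 libraries. MTF1 was 0.19 higher with miR-708 in MCF10A (−0.02 to 0.40, adjusted p = 0.351, limma) and 0.10 higher in hTERT RPE-1 (−0.10 to 0.29, adjusted p = 0.475, limma). For MT1F the intervals spanned −0.46 to 1.48 and −0.96 to 0.99. Under scaling by library total, the MT2A and MT1X differences in hTERT RPE-1 turned to 0.16 and 0.12, still without a call, and MTF1 was called higher (0.33, adjusted p = 0.0329, limma).

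Coding matches to the seed can be set against the response of genes without a 6mer in the 3′ UTR. In hTERT RPE-1 the median log2 fold change with miR-28 was 0.12 in 4606 genes with no coding match, 0.03 in 2070 genes with 1, −0.08 in 835 genes with 2 and −0.12 in 669 genes with 3 or more. With miR-708 the medians were 0.17, 0.05, −0.08 and −0.15. In MCF10A they were 0.00, −0.02, −0.03 and 0.03 with miR-28 and 0.04, −0.03, −0.08 and −0.06 with miR-708. The median coding length also rose over these groups of genes in hTERT RPE-1, from 1119 bases through 1542 and 2043 to 3426, and length and number of matches cannot be told apart here. The 4 tested genes of this kind with 10 or more matches per kb were MT2A, MT1X, MT1E and MT1F, whose values are those given above.

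The promoters of MT2A and MT1X are shown because both genes had lower means with the mimics while MTF1 had higher means. These promoters carry the binding motif of MTF1, and a link between the changes was not tested. The sequences are from RefSeq on GRCh38.p14, from 250 bases before to 50 after the gene start on the coding strand, and the promoter table held these genes and MTF1 while MT1E, MT1F, MT1G and MT1M were not in it. Capitals mark the core of the metal response element, TGCACNC or TGCGCNC, on either strand. MT2A (chr16:56608334-56608633) had 8 cores, 5 on the coding strand and 3 on the other.
MT2A promoter: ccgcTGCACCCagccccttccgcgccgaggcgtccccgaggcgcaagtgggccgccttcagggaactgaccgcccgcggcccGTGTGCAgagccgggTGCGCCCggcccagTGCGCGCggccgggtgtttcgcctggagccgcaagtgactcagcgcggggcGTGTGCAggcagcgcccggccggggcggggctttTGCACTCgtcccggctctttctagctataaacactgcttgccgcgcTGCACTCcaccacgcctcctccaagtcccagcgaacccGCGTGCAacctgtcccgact
MT1X promoter: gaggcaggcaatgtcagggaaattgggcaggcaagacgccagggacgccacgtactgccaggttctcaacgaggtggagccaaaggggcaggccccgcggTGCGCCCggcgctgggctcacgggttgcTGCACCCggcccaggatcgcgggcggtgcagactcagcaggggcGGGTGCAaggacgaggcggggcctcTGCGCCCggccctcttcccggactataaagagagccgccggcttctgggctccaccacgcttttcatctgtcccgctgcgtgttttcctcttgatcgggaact

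MT1X (chr16:56682220-56682519) had 4 cores, and the promoter of MTF1 had 0. Of 35116 promoters of this length, 29.6% held at least 1 core, 0.601% held 4 or more and 0.0199% held 8 or more.

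The other genes of metal handling were read from lists of named genes. The counts of each list are to be read against the shares called among all genes, given here as lower and then higher. These were 12% and 10.7% with miR-28 and 17.3% and 15.5% with miR-708 in MCF10A. For hTERT RPE-1 they were 23.5% and 23.3%, then 31.2% and 30.9%. Of the zinc exporters, which move zinc out of the cytosol, 6 of 10 were tested in MCF10A and 7 of 10 in hTERT RPE-1. In MCF10A 3 were called higher with miR-28 and 2 with miR-708, and none lower. In hTERT RPE-1 2 were called higher and 1 lower with each mimic, and the medians of the list were −0.07 and −0.13. SLC30A1, the plasma membrane exporter, rose in all comparisons with siNT. Its mean was 2876 normalised reads with siNT in hTERT RPE-1, 7831 with miR-28 (log2 fold change 1.43, adjusted p = 6.73e-05, limma) and 7443 with miR-708 (1.37, adjusted p = 3.84e-05, limma), and in MCF10A it went from 7381 to 12399 (0.76) and 10750 (0.53). SLC30A7, which loads zinc into the secretory pathway, also rose in all of them, by 0.49 to 0.76. SLC30A6 was the exporter that fell in hTERT RPE-1, by 0.46 and 0.43 on the log2 scale, and SLC30A4 rose by 0.90 in MCF10A with miR-28. In hTERT RPE-1, SLC30A1 thus rose in the groups in which MT2A fell.

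Of the zinc importers, which bring zinc into the cytosol, 11 of 14 were tested in each line. None was called by limma in MCF10A with miR-28 (0 at an unadjusted p below 0.05), while 2 were lower and 1 higher with miR-708. In hTERT RPE-1, 6 were lower and 1 higher with miR-28 and 7 lower and 1 higher with miR-708, with list medians of −0.35 and −0.28. SLC39A13 fell most there, with log2 fold changes of −1.02 and −1.67, and SLC39A7, of the endoplasmic reticulum, fell by 0.71 and 0.77 on the log2 scale. SLC39A14 fell with both mimics (−0.89 and −0.72), and SLC39A8 rose with miR-28 by 0.44 in log2 and with miR-708 from 767 to 1536 normalised reads. SLC39A4, the importer of dietary zinc, was lower with miR-708 in both lines (−0.85 in MCF10A and −1.29 in hTERT RPE-1) and with miR-28 in hTERT RPE-1 (−0.90).

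Of the 16 genes of copper handling, 16 were tested in MCF10A and 13 in hTERT RPE-1. In MCF10A 3 were lower and 1 higher with miR-28 and 2 each way with miR-708, and in hTERT RPE-1 6 were lower and 2 higher, then 7 lower and 4 higher. SLC31A1, the main copper importer, fell in every comparison with siNT. It went from 2366 normalised reads to 772 and 422 in MCF10A (log2 fold changes −1.61 and −2.56) and from 2278 to 625 and 310 in hTERT RPE-1 (−1.88 and −2.87). STEAP3, a metalloreductase, fell in hTERT RPE-1 (−0.98 and −1.33) and STEAP2 rose (0.68 and 1.20). CP, the copper carrier of plasma, was lower in MCF10A (−1.20 and −1.17), and CCS, which hands copper to superoxide dismutase, was higher there (0.75 and 0.72). In hTERT RPE-1 CCS was lower (−0.51, adjusted p = 0.031, and −1.20, adjusted p = 0.000144, limma).

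**Figure D5:**
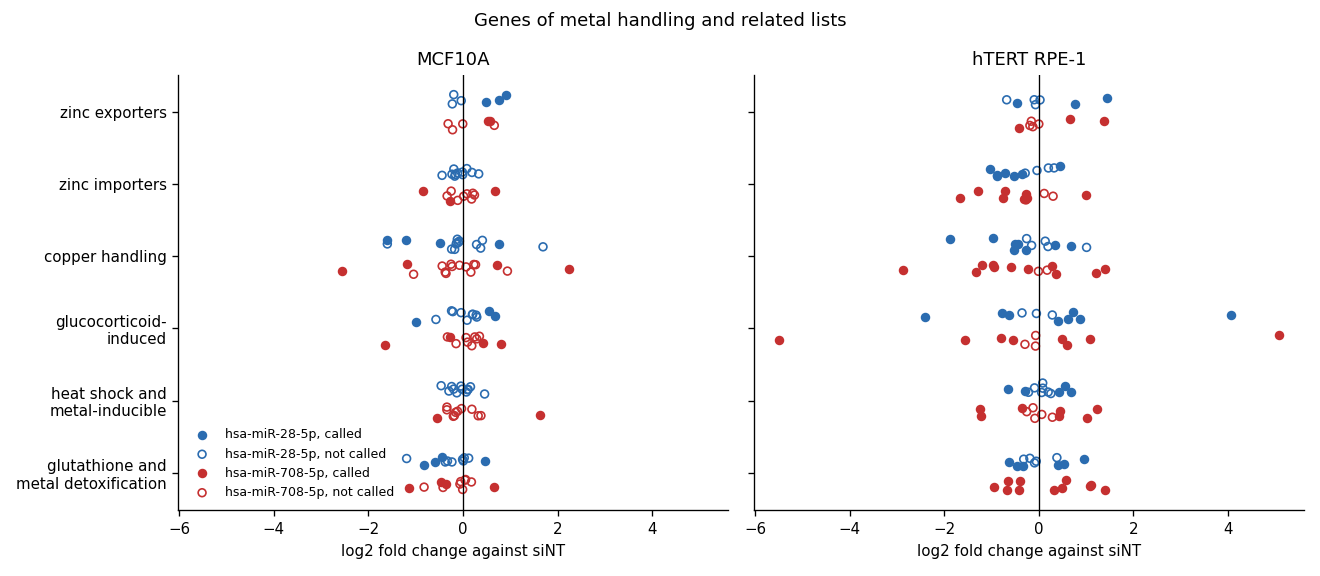
Log2 fold change against siNT of the tested genes in 6 lists, blue for miR-28 and red for miR-708, filled where the adjusted p was below 0.05; the vertical spread of points within a list has no meaning. Genes lie on both sides of zero in the lists, with 6 and 7 zinc importers called lower in hTERT RPE-1 and none and 2 in MCF10A.

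Glucocorticoid-induced genes were read because the medium of MCF10A contains hydrocortisone, and the counts of this list include the receptor gene NR3C1. Of 12 tested in MCF10A, 1 was lower and 2 higher with miR-28 and 2 were lower and 2 higher with miR-708, with list medians of 0.14 for both. KLF9 (0.68 and 0.79) and ZBTB16 (0.55 and 0.43) rose and TFCP2L1 fell (−0.99 and −1.64), while NR3C1, which encodes the glucocorticoid receptor, fell with miR-708 (−0.28). NR3C1 rose in hTERT RPE-1 (0.62, adjusted p = 0.0011, and 0.49, adjusted p = 0.00277, limma). In hTERT RPE-1, 3 of 11 were lower and 5 higher with miR-28, and 4 were lower and 4 higher with miR-708. The largest changes there were in ANGPTL4 (4.07 and 5.07) and CRISPLD2 (−2.40 and −5.49).

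Of 12 heat shock and metal-inducible genes, none was called by limma with miR-28 in MCF10A (2 at an unadjusted p below 0.05) and 1 each way with miR-708, and in hTERT RPE-1 2 were lower and 3 higher, then 3 lower and 4 higher. HMOX1, the heme oxygenase induced by metals and oxidants, rose in hTERT RPE-1 (0.55 and 1.23) and with miR-708 in MCF10A (1.62). The chaperone gene HSPA1B rose in hTERT RPE-1 (0.67 and 1.02), whereas the small heat shock protein gene HSPB1 fell (−0.65 and −1.23).

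Of the glutathione and metal detoxification genes, 3 of 12 were lower and 1 higher with each mimic in MCF10A, where GCLC, the catalytic subunit of glutathione synthesis, fell (−0.83 and −1.15). GCLC rose in hTERT RPE-1 (0.41, adjusted p = 0.0176, and 0.49, adjusted p = 0.00467, limma). In hTERT RPE-1, 3 of 11 were lower and 3 higher with miR-28, and 5 lower and 6 higher with miR-708. GPX1, a glutathione peroxidase, rose in all comparisons with siNT, with log2 fold changes of 0.46 and 0.65 in MCF10A, then 0.95 and 1.09 in hTERT RPE-1. Over these lists the comparisons with siNT share its libraries within a line.

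Genes whose pattern over the 9 libraries of a line was most like that of MT2A were ranked by Pearson r of log2(value + 1), as a description over libraries that share groups. Among 11255 genes of MCF10A these were BDH1 (r = 0.998), DPYD (0.992), HIGD2A (0.989), APMAP (0.988) and NIPAL4 (0.985). Among 11436 genes of hTERT RPE-1 they were LGALS1 (0.995), TIMM50 (0.991), ROMO1 (0.990), MYEF2 (0.990) and SMAP2 (0.990). The order among them rests on differences in the third decimal. Within the members, r with MT2A was 0.942 for MT1E, 0.880 for MT1X, 0.604 for MT1F and −0.794 for MTF1 in MCF10A. The same values were 0.851, 0.912, 0.921 and −0.943 in hTERT RPE-1, with 0.797 for MT1M, so the metallothionein genes were not the closest to MT2A in either line.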

How the data were processed

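PolyA+ RNAseq of 18 libraries was analysed, 9 per cell line. The authors trimmed adapters, aligned to hg38 (HISAT2 2.1.0) and counted reads over RefSeq transcripts by expectation-maximisation in Partek Flow, which divides shared reads between transcripts. The expression signal the authors deposited holds, in 1 table per line, estimated counts scaled by size factors of median-of-ratios type, and listed genes had no value of 0. Their ratios, log2 ratios and p-values from DESeq2 were not used, and 0 columns of values per library were left out. The 3-read floor covers counting error only, since the reads carry no molecular identifiers.

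Values were transformed as log2(value + 1), so fold changes of low genes are understated. A gene was kept in a line if 3 or more of its 9 libraries reached 10, 3 group means were fitted with limma 3.58.1 (trended moderation) in R 4.3.3, and p-values were Benjamini-Hochberg adjusted over all tested genes, with calls below 0.05. The fit was tested on simulated data with independent noise in each library, so correlation between same-numbered libraries was not covered. Members and lists were chosen with earlier results of these data known. Genes named are the members, a part of the called genes of each list and the 5 genes most like MT2A with a mean of at least 100. Of the up to 4 called genes with the largest changes per list and comparison, not all are named. Among those left out with miR-708 in hTERT RPE-1 were GSTO1 (log2 fold change 1.40), CRYAB (−1.245) and ERRFI1 (−1.56). SCO2 (1.41), FKBP5 (1.09), GCLM (1.09) and GPX4 (−0.94) were also left out there. With miR-28 in hTERT RPE-1, those left out included SGK1 (0.87), DUSP1 (−0.79), GSTP1 (−0.63) and ATP7B (−0.54). In MCF10A they included SCO2 (2.25) with miR-708 and GCLM (−0.59) with miR-28. Some called genes with smaller changes are named. Sequences used 1 GENCODE 44 transcript per gene, the mimics' as designed. It was the Ensembl canonical transcript, except for MT1E, where the APPRIS principal transcript was used. Across genes, same-numbered libraries of MCF10A correlated at 0.111–0.302 between each mimic and siNT. Those of hTERT RPE-1 did so at 0.134–0.278 between mimics, and in both cases the numbers were taken to mark pairs. Pairs were used only for the ratios to siNT in MCF10A, which are given without a test. The main fits held no replicate block, which was an alternative. The split between paired and unpaired comparisons is not sharp. Between mimics in MCF10A, same-numbered libraries correlated at 0.025–0.177. Against siNT in hTERT RPE-1 they reached 0.043 with miR-28 and 0.151 with miR-708. In MCF10A, miR-28 replicate 9 and siNT replicate 8, of different numbers, reached 0.11. Alternatives were other pseudocounts, filters, scalings, moderation, a replicate block, the 6 libraries of a comparison alone and each library left out. Summaries and plots used matplotlib 3.10.9, numpy 2.4.6 and pandas 2.3.3 under Python 3.11.15.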

Additional observations from a re-analysis of the deposited data

How the results depend on the processing

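Against siNT, no member changed direction under any alternative, and in hTERT RPE-1 MT2A, MT1X and MTF1 kept their calls. MT1E with miR-28 in hTERT RPE-1 lost its call under library size scaling (−0.33, adjusted p = 0.0962, limma) and without a trend (adjusted p = 0.067, limma), and it ranged from −0.50 to −0.32 with single libraries left out. The members called there numbered 3 to 5 with single libraries left out, 3 without siNT replicate 1 or 3, where MT1F no longer passed the filter. With a replicate block no call of a member changed (MT2A against siNT in hTERT RPE-1, adjusted p = 8.13e-05 and 2.32e-05, limma), and the genes called between the mimics in MCF10A went from 228 to 643. Without a trend they were 150.

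Library size scaling put the median of all genes at 0.12 with miR-28 and 0.14 with miR-708 against siNT in MCF10A, where upper quartile scaling put it at 0.08 and 0.05. In hTERT RPE-1 library size scaling put it at 0.09 and 0.32 against siNT and at 0.23 between mimics. The share of calls that were higher went from 47.1% to 66.2% and from 47.3% to 67.6% in MCF10A (59.2% with miR-28 under upper quartile scaling), and from 49.7% to 71.9% with miR-708 in hTERT RPE-1. Between mimics in hTERT RPE-1 it went from 46.5% to 84.8%, the calls from 3084 to 4654 and the members called from 0 to 1 (MTF1), with MT2A at 0.16 and MT1X at 0.12. MTF1 in MCF10A moved to 0.43 and 0.65 and MT2A with miR-708 in hTERT RPE-1 to −0.64. The cause was not tested.

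With single libraries left out, the genes called against siNT in MCF10A ranged 1949–3950 with miR-28 and 3174–5483 with miR-708, and those between mimics 112–368 in MCF10A, against 1512–4084 for hTERT RPE-1. The calls with miR-28 in MCF10A dropped by over 1.5 times without siNT replicate 8 (2113) or 9 (2099) or miR-28 replicate 8 (1949) or 9 (2193), and with miR-708 without miR-708 replicate 9 (3174). Between mimics they dropped so in MCF10A without miR-28 replicate 8 (135) or 9 (151) or miR-708 replicate 8 (127) or 9 (112), rose without miR-708 replicate 7 (368), and dropped in hTERT RPE-1 without miR-28 replicate 3 (1651) or miR-708 replicate 1 (1893) or 3 (1512). The uncalled differences between mimics ranged from −0.12 to 0.19 (MT2A), −0.008 to 0.92 (MT1X) and −0.11 to 0.44 (MT1E) in MCF10A and from −0.15 to 0.02 (MT2A), −0.26 to 0.074 (MT1X) and −0.27 to 0.39 (MT1F) in hTERT RPE-1. Divided by transcript length, the summed level with miR-28 in hTERT RPE-1 was 56.8% of siNT in place of 59.1%. Values of MT1F and MT1M near 3 reads are limited by depth.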
